A study of Mus musculus with 4 samples.

Results

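Naive pluripotency is the state of mouse embryonic stem (ES) cells that resemble the inner cells of the early blastocyst, and 10 genes whose products maintain it were described here: Klf2, Klf4, Klf5, Esrrb, Tfcp2l1, Tbx3, Nr0b1, Nr5a2, Prdm14 and Tcl1. They were taken by gene symbol, and all 10 were found among the 23235 genes of the deposited table. The 4 groups held 1 library each, all of strain 129S4/SvJae. WT_ES was wild-type ES cells of the J1 background on day 0, kept in fetal bovine serum and leukemia inhibitory factor (LIF), and DKO_ES was ES cells lacking the de novo DNA methyltransferases DNMT3A and DNMT3B in the same medium. WT_NP and DKO_NP were the neural progenitor cells (NPCs) made from each line, taken on day 6 after 4 days as embryoid bodies and 2 days in retinoic acid. Earlier passages of the ES cells grew on irradiated feeder cells, which were removed by passaging on gelatin. Each genotype is 1 line, so a difference between genotypes cannot be told apart from a difference between lines or cultures. Values are FPKM, the read number set relative to transcript length and to library depth, and since no group has a second library, differences carry no replicate check and no p-value.

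In naive ES cells, LIF acts through the kinase JAK and the transcription factor STAT3, and the transcription factors named above hold the state together with OCT4, SOX2 and NANOG. The network has several inputs: Klf4, Klf5 and Tfcp2l1 are known targets of STAT3, Tbx3 responds to LIF by the PI3K and AKT route, and Esrrb is released when the repressor TCF7L1 is held off by Wnt signalling. When LIF is withdrawn and FGF and ERK signalling acts, these genes are shut down before lineage genes come on. The name transcription factor does not cover all members. Tcl1 encodes a cofactor of the AKT kinases, and Nr0b1 (DAX1) is an orphan nuclear receptor that lacks the usual DNA-binding domain and acts as a corepressor.

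The DNA sequence just upstream of 4 of the start sites is shown because the enzymes missing in the knockout act on CpG dinucleotides, and these 4 genes range from 40 to 11 CpGs in the windows described next and include the lower Klf4 and the higher Tcl1 of the knockout ES cells. Sequences are from RefSeq on GRCm38.p6, 5′ to 3′ on the gene's strand, 250 bases each, with CpG dinucleotides in capitals. The Klf4 stretch lies at chr4:55532476-55532725 on the minus strand, that of Klf2 at chr8:72318812-72319061 on the plus strand, that of Nr0b1 at chrX:86191525-86191774 on the plus strand and that of Tcl1 at chr12:105222738-105222987 on the minus strand.
Klf4: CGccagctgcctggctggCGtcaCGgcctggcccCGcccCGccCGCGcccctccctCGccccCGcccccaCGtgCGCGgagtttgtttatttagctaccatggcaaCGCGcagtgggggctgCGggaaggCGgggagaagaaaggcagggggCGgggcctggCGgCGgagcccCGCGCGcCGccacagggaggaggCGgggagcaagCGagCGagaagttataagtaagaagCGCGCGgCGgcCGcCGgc
Klf2: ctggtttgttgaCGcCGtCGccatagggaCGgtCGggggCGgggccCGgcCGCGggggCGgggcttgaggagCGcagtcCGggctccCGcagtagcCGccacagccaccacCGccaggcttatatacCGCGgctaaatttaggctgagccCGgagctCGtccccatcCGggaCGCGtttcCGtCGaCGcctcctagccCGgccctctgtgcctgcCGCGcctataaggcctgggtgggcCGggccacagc
Nr0b1: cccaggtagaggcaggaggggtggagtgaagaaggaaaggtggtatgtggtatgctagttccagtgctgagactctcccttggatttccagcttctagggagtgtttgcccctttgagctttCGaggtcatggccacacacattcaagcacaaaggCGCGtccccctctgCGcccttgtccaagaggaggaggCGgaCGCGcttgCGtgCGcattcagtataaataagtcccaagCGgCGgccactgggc
Tcl1: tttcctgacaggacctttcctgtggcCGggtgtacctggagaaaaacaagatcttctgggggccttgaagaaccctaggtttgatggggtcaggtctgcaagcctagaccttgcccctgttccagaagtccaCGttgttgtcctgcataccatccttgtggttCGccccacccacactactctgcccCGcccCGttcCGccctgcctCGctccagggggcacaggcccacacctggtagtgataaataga

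The windows differ in CpG content from one member to the next. RefSeq windows of 300 bases, from 250 before to 50 after the start, were held for 7 of the 10 members, with 2 start sites each for Esrrb and Nr5a2. The Klf4 window holds 40 CpGs, more than 96.1% of all 32851 windows, and the Klf2 window 32. Those of Tfcp2l1, Nr0b1 and Tcl1 hold 21, 14 and 11, against a median of 7 over all windows. Both Esrrb windows hold 7, and those of Nr5a2 hold 2 and 7. No methylation was measured in these files, so the sequences describe the start sites alone. On either strand, a STAT motif (TTCNNNGAA) was found in 1 of the 9 windows, the first of Esrrb, against 8.30% of all windows. A KLF motif (GGGNGTG) was found in 4 windows, those of Tfcp2l1 and Nr0b1, the first of Esrrb and the second of Nr5a2, against 29.2% of all windows. The nuclear receptor motif AAGGTCA and the TCF motif CTTTGAT were found in 0 of the 9, against 4.72% and 3.73% of all windows, and no match says only that these letters are not in the windows. The members lie on chromosomes 1 (Tfcp2l1, Nr5a2, Prdm14), 4 (Klf4), 5 (Tbx3), 8 (Klf2), 12 (Esrrb, Tcl1), 14 (Klf5) and X (Nr0b1).

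The labels were checked against marker genes. Pou5f1, the gene of OCT4, was at 1087 FPKM in WT_ES, 1153 FPKM in DKO_ES, 11.0 FPKM in WT_NP and 23.4 FPKM in DKO_NP. Dnmt3a and Dnmt3b, the knocked-out genes, were lower in the knockout but not at 0, with Dnmt3a at 35.3 and 12.3 FPKM and Dnmt3b at 140.3 and 13.9 FPKM in the wild-type and knockout ES libraries. Both day 6 libraries held transcripts of several lineages. The summed level of 11 neural progenitor markers was 97.6 FPKM in WT_NP and 264 in DKO_NP, that of 11 endoderm markers 145 and 34.3, and that of 9 mesoderm markers 62.0 and 13.97. In bulk RNA, fewer cells of a type and less RNA per cell cannot be told apart. The approximate number of mapped reads behind the values was 12.9 M in WT_ES, 34.0 M in WT_NP, 14.1 M in DKO_ES and 23.5 M in DKO_NP.

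In wild-type ES cells all 10 genes were expressed, from 16.8 to 174 FPKM. Esrrb, an orphan nuclear receptor that binds DNA as a single molecule, was highest at 174 FPKM, and Klf2, a zinc finger factor that binds GC-rich sites, followed at 156 FPKM. These levels lay above those of 94.2% and 93.6% of all genes at or above 1 FPKM in that library. Klf4, a relative of Klf2 used in reprogramming, stood at 93.9 FPKM. Tcl1, Klf5 and Nr0b1 came next at 61.1, 58.3 and 56.1 FPKM, and neighbours in this run were not told apart by counting error. Tfcp2l1, a Grainyhead-type factor downstream of LIF, stood at 51.5 FPKM. Nr5a2 (LRH-1), a nuclear receptor that can activate Pou5f1, stood at 24.5 FPKM and the T-box factor Tbx3 at 22.4, again within counting error of each other. Prdm14, a zinc finger protein with a PR domain that represses Dnmt3b and FGF receptor genes, was lowest at 16.8 FPKM. Levels between genes are compared per length, as FPKM.

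**Figure D1:**
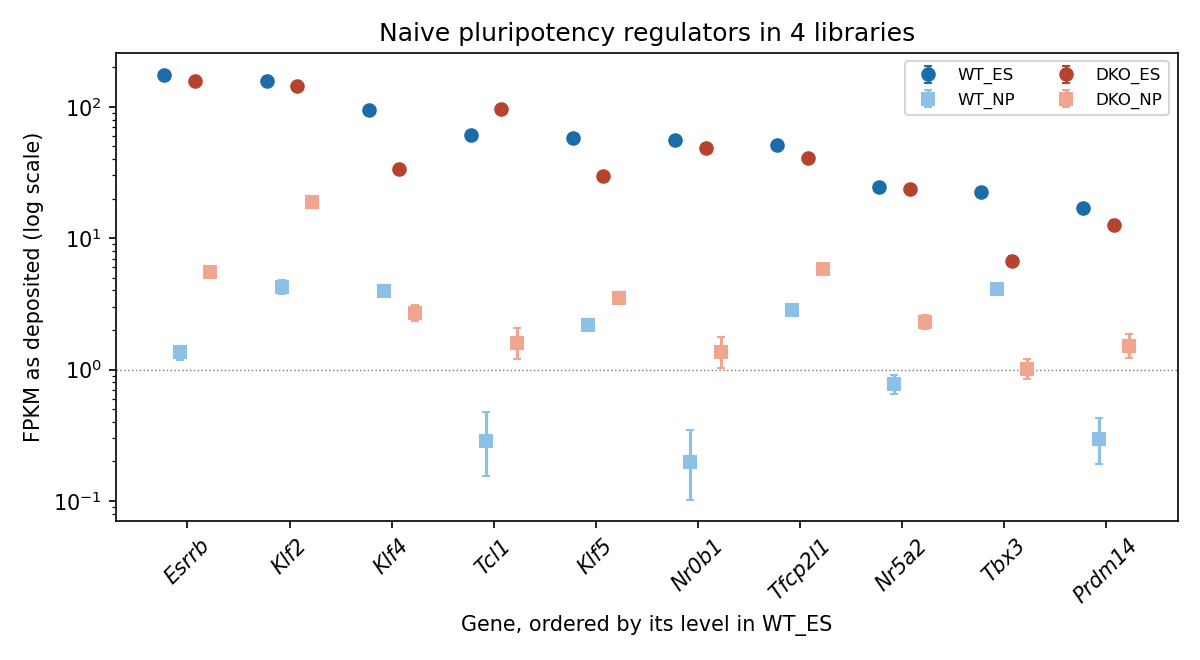
FPKM as deposited (log scale) of the 10 genes in WT_ES, WT_NP, DKO_ES and DKO_NP, 1 library each, ordered by the level in WT_ES; bars are exact 95% Poisson intervals of the approximate reads, covering counting error only, and the dotted line marks 1 FPKM. As deposited, both ES libraries stand above both NPC libraries for each gene, with the narrowest gap at Tbx3, from 6.71 FPKM in DKO_ES to 4.08 in WT_NP; after median scaling that pair is reversed, at 5.36 and 6.09.

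Wild-type differentiation, WT_NP against WT_ES, left every member at a lower level. All 10 were at least 2-fold lower and 0 higher, on a log2 ratio of (FPKM + 1) after median scaling, against 11.3% of 14086 genes at least 2-fold lower and 16.2% higher. Their median log2 ratio was -3.40, against 0.01 for all genes. Before scaling, the median of all genes in this comparison was -0.82. The members differed widely in how much was left, which is given here as the day 6 level in percent of the ES level of the same genotype, after median scaling and without a pseudocount.

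The deepest losses were those of Nr0b1, Tcl1, Esrrb and Prdm14. Nr0b1 went from 56.1 FPKM in WT_ES to 0.198 in WT_NP, 144-fold lower (95% interval 82.4 to 280.1), which left 0.693%. Tcl1 went from 61.1 to 0.285 FPKM, 109-fold lower (64.8 to 200.2), and Esrrb from 174 to 1.35 FPKM, 65.5-fold lower (57.9 to 74.4). Prdm14 went from 16.8 to 0.293 FPKM, 29.2-fold lower (19.7 to 45.1). These 4 left between 0.693% and 3.43% of their ES level. In WT_NP 3 reads of Nr0b1 correspond to 0.0488 FPKM and 3 reads of Tcl1 to 0.0607 FPKM, so both were above that floor.

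The Klf genes, Nr5a2 and Tfcp2l1 stood lower by smaller folds. Klf2 went from 156 to 4.26 FPKM, 18.6-fold lower (16.4 to 21.1), Klf5 from 58.3 to 2.18, 13.6-fold lower (12.3 to 15.2), and Klf4 from 93.9 to 3.98, 12.0-fold lower (10.8 to 13.3). Nr5a2 went from 24.5 to 0.770 FPKM, 16.2-fold lower (13.6 to 19.3), and Tfcp2l1 from 51.5 to 2.84, 9.23-fold lower (8.60 to 9.91). Tbx3 stood apart. It went from 22.4 FPKM to 4.08, 2.79-fold lower (2.55 to 3.05), so that 35.9% of its ES level was left, against 10.8% for Tfcp2l1, the next of the members. In WT_NP Tbx3 was thus within counting error of Klf2 and Klf4 at the top of the 10 genes, after ranking 9 of 10 in WT_ES. Tbx3 is also used in limb, heart and endoderm development. Its T-box relatives Tbx5, a factor of the heart and forelimb, and Tbx2 stood at 0.0510 and 0.189 FPKM in WT_ES and at 2.41 and 1.05 in WT_NP. Tbx4, another relative, went the opposite way, at 0.861 FPKM in WT_ES and 0.219 in WT_NP. The summed mesoderm markers stood at 6.94 FPKM in WT_ES and 62.0 in WT_NP, and those of endoderm at 6.78 and 145, with 0 of either list at 0 in WT_NP; their part in the level of Tbx3 was not tested. An antisense gene, Tbx3os1, overlaps Tbx3 exons in GENCODE, and no label says that the libraries kept strand, so its reads cannot be told from those of Tbx3.

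Knockout differentiation, DKO_NP against DKO_ES, also left all 10 genes at least 2-fold lower, against 11.2% of 14050 genes lower and 11.8% higher. The median log2 ratio was -2.45, against -0.03 for all genes (-0.43 before scaling). Tcl1 went from 96.3 FPKM in DKO_ES to 1.59 in DKO_NP, 43.9-fold lower (33.5 to 58.7), Nr0b1 from 48.8 to 1.36, 25.9-fold lower (19.9 to 34.4), and Esrrb from 158 to 5.49, 20.8-fold lower (19.3 to 22.5). These were again the 3 deepest losses. Klf4 followed, from 33.8 to 2.70 FPKM, 9.09-fold lower (7.81 to 10.6). Nr5a2 went from 23.7 to 2.31 FPKM, 7.45-fold lower (6.59 to 8.44), Klf5 from 29.7 to 3.52, 6.12-fold lower (5.52 to 6.80), and Prdm14 from 12.7 to 1.51, 6.08-fold lower (4.85 to 7.70). The smallest folds were those of Klf2, from 143 to 18.8 FPKM, 5.50-fold lower (5.10 to 5.94), Tfcp2l1, from 41.1 to 5.79, 5.14-fold lower (4.84 to 5.47), and Tbx3, from 6.71 to 1.02, 4.80-fold lower (3.93 to 5.89).

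Set side by side, the knockout kept a larger share of its own ES level than the wild type for 9 of the 10 genes. Nr0b1 was left at 3.86% in the knockout and 0.693% in the wild type, Prdm14 at 16.4% and 3.43%, Klf2 at 18.2% and 5.37%, and Esrrb at 4.80% and 1.53%. Tcl1 was left at 2.28% and 0.917%, Klf5 at 16.3% and 7.34%, Nr5a2 at 13.4% and 6.19%, and Tfcp2l1 at 19.4% and 10.8%. Klf4 was close, at 11.0% and 8.32%. Tbx3 went the other way, at 20.9% in the knockout and 35.9% in the wild type. A larger share is not always a higher day 6 level. Klf4 was 2.64-fold lower in DKO_ES than in WT_ES and still 1.99-fold lower in DKO_NP than in WT_NP. Klf5 was 1.86-fold lower in the knockout in ES cells and 1.19-fold higher in NPCs. The difference of the log2 ratios, knockout minus wild type, was above 0 for 9 of 10 members, with a median of 0.91, and above 0 for 50.0% of 14713 genes, with a median of 0.00 after scaling. For Tbx3 it was -0.25, but 0.26 without scaling. With scaling it was 0.23 at a pseudocount of 5 FPKM and -0.70 at 0.1 FPKM. Its direction on this measure thus depends on the scaling and on the pseudocount. The difference was not tested, since it rests on 4 libraries with 1 in each group.

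**Figure D2:**
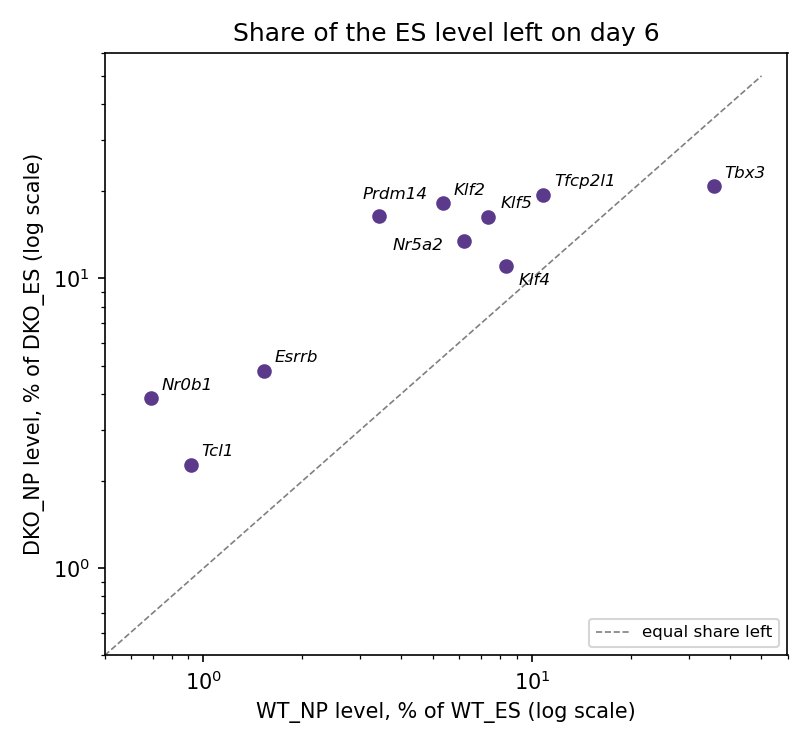
Level on day 6 in percent of the ES level of the same genotype, after median scaling, for wild type (x axis) and knockout (y axis), both on log scales; each point is 1 gene and the dashed line marks equal shares. 9 points lie above the line, and Tbx3, at 35.9% in the wild type and 20.9% in the knockout, lies below it.

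Before differentiation, DKO_ES against WT_ES, Tbx3, Klf4 and Klf5 were lower and Tcl1 higher by more than 1.5-fold, and the other 6 genes differed by 1.26-fold or less. At 2-fold, 2 of 10 members were lower and 0 higher, against 1.15% of 13596 genes lower and 2.56% higher, and the median log2 ratio of the members was -0.18, against 0.01 for all genes. Tbx3 was at 22.4 FPKM in the wild type and 6.71 FPKM in the knockout, 3.16-fold lower (2.85 to 3.51). Klf4 stood at 93.9 and 33.8 FPKM, 2.64-fold lower (2.48 to 2.81). Klf5, which shares targets with Klf2 and Klf4, stood at 58.3 and 29.7 FPKM, 1.86-fold lower (1.77 to 1.96), just under the 2-fold line. Tcl1 stood at 61.1 and 96.3 FPKM, 1.66-fold higher (1.54 to 1.79).

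The other 6 genes differed less. Prdm14 was 1.26-fold lower (1.11 to 1.43), at 16.8 and 12.7 FPKM, and Tfcp2l1 1.19-fold lower (1.15 to 1.23). Nr0b1 was 1.09-fold lower (1.01 to 1.18) and Esrrb 1.05-fold lower (1.02 to 1.07). Klf2, at 156 and 143 FPKM, was 1.04-fold lower (0.989 to 1.08), and Nr5a2, at 24.5 and 23.7 FPKM, was 1.02-fold higher (0.955 to 1.09). For these last 2, counting error spans no difference, and Nr5a2 was on the lower side before scaling. The order of the genes moved with this: from the highest down, Klf4 ranked 3 of 10 in WT_ES and 6 in DKO_ES, Tcl1 ranked 4 and 3, and Tbx3 ranked 9 and 10.

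Markers of other cell types also differed between the ES libraries, some lower and some higher in the knockout. The ES cells had been kept on feeder cells in earlier passages and were then moved off them, per the labels. Of 10 fibroblast markers, 7 reached 1 FPKM in either ES library, of which 3 were at least 2-fold lower in DKO_ES and 0 higher. Their summed level was 275 FPKM in WT_ES and 190 in DKO_ES, of which Fn1, which ES cells also express, was 206 and 170. The defining collagen genes Col1a1 and Col1a2 stood at 8.93 and 5.23 FPKM in WT_ES, and at 1.07 and 0.556 in DKO_ES, while Dcn was listed at 0 in both. Of 9 trophoblast markers, 5 reached 1 FPKM, of which 1 was counted as lower and 0 as higher. That gene was the keratin gene Krt8, at 52.9 FPKM in the wild type and 14.8 FPKM in the knockout, and the 9 summed to 139 and 71.5 FPKM. Ascl2, not counted, was 2.21-fold higher in the knockout without a pseudocount (1.73 to 2.83). Of 11 endoderm markers, 3 reached 1 FPKM and 0 were counted on the (FPKM + 1) scale. Without a pseudocount Cubn was 4.48-fold (3.25 to 6.29) and Gata4 3.25-fold (2.05 to 5.32) lower, and Hnf4a was 2.34-fold higher (1.68 to 3.30). The 11 summed to 6.78 and 4.50 FPKM. In 3 other lists the counted genes were higher in DKO_ES, with 0 lower. They were Dppa3 (3.93-fold) and Dazl (2.52-fold) of 8 germ cell markers, Pax6 (2.80-fold) of 5 tested neural progenitor markers, and Twist1 (2.40-fold) of 2 tested mesoderm markers. Of 5 tested endothelial markers 0 were counted. Without a pseudocount Kdr was 4.21-fold (2.68 to 6.86) and Cldn5 2.36-fold (1.63 to 3.46) higher, and Pecam1 was 1.22-fold lower (1.14 to 1.30). Klf4 is also a fibroblast gene, and the part of these cell types in the lower Klf4 and Tbx3 was not tested.

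Within the KLF trio, which is described as acting together in ES cells, the make-up differed between genotypes on both days. Klf2 gave 50.6% of the summed FPKM of Klf2, Klf4 and Klf5 in WT_ES, with 30.5% from Klf4 and 18.9% from Klf5. In DKO_ES the shares were 69.2%, 16.4% and 14.4%. In WT_NP they were 40.9%, 38.2% and 20.9%, from a sum of 10.4 FPKM, and in DKO_NP 75.2%, 10.8% and 14.0%, from a sum of 25.1 FPKM. Shares within a library do not depend on how libraries are scaled.

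**Figure D3:**
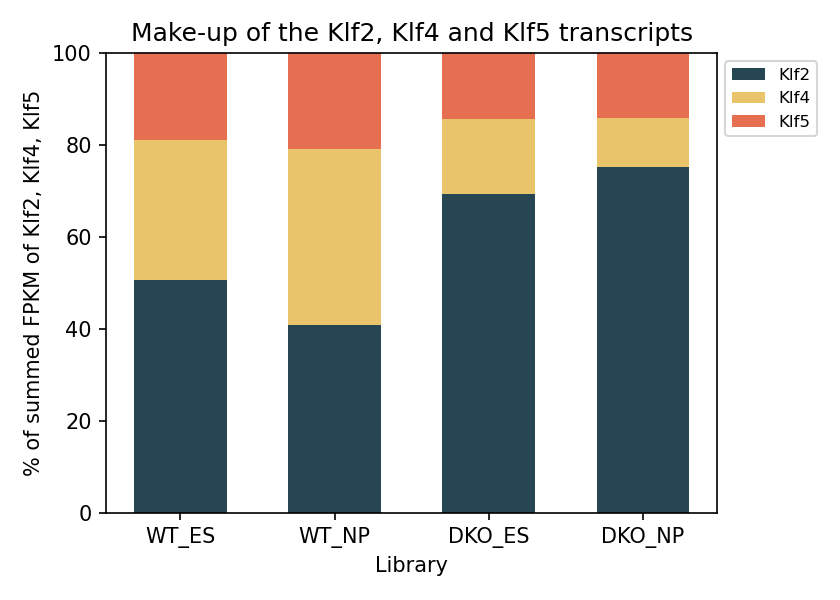
Share of each gene in the summed FPKM of Klf2, Klf4 and Klf5, in percent, in the 4 libraries, 1 library per bar. Klf2 holds 50.6% in WT_ES and 40.9% in WT_NP, and 69.2% in DKO_ES and 75.2% in DKO_NP, while Klf4 is at 30.5%, 38.2%, 16.4% and 10.8% in the same order.

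On day 6, DKO_NP against WT_NP, 8 of the 10 genes stood higher in the knockout, and Klf4 and Tbx3 lower. At 2-fold on the (FPKM + 1) scale, 2 members were higher and 1 lower, against 4.76% of 13601 genes higher and 7.99% lower. This scale damps genes near 1 FPKM, where most members stood. With a pseudocount of 0.1 FPKM, 6 were higher and 1 lower, against 6.83% and 11.3% of genes. The median log2 ratio of the members was 0.80, against 0.01 for all genes (0.39 before scaling), and for the members it was 1.31 with a pseudocount of 0.1 FPKM and 0.30 with 5 FPKM.

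Klf2 had the largest gap in level, at 4.26 FPKM in the wild type and 18.8 FPKM in the knockout, 3.27-fold higher in the knockout (2.84 to 3.77), and Esrrb stood at 1.35 and 5.49 FPKM, 3.01-fold higher (2.61 to 3.48). These were the 2 genes past 2-fold on the main scale. Nr0b1, at 0.198 and 1.36 FPKM, was 5.10-fold higher (2.71 to 10.4), Tcl1, at 0.285 and 1.59, 4.12-fold (2.26 to 8.04), and Prdm14, at 0.293 and 1.51, 3.80-fold (2.43 to 6.12). Nr5a2, at 0.770 and 2.31 FPKM, was 2.21-fold higher (1.81 to 2.71). Tfcp2l1, at 2.84 and 5.79 FPKM, was 1.51-fold higher (1.38 to 1.65), and Klf5, at 2.18 and 3.52, 1.19-fold (1.04 to 1.37). As deposited, 6 of the 10 genes reached 1 FPKM in WT_NP and 10 in DKO_NP, against 12756 and 12878 of all 23235 genes. After median scaling Nr5a2 in WT_NP also passed 1 FPKM, at 1.15. The summed level of the members as deposited was 20.2 FPKM in WT_NP and 44.1 in DKO_NP, against 714 in WT_ES and 593 in DKO_ES. After median scaling the 4 sums were 30.2, 48.6, 542 and 474 in the same order. Klf2 alone gave 42.7% of that sum in DKO_NP and 21.1% in WT_NP.

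Tbx3 was at 4.08 FPKM in the wild type and 1.02 FPKM in the knockout, a 5.44-fold lower level (4.49 to 6.64); without scaling it was lower too, by 1.33 on the log2 (FPKM + 1) scale against 1.74 with scaling. Klf4 stood at 3.98 and 2.70 FPKM, 1.99-fold lower (1.68 to 2.38). Tbx5, a relative of Tbx3, was also lower, at 2.41 and 0.0936 FPKM, and Tbx2 was higher, at 1.05 and 2.87 FPKM. Tbx4 stood at 0.219 and 0.254 FPKM. The summed mesoderm markers stood at 62.0 and 13.97 FPKM in these libraries, with 4 of 7 tested markers at least 2-fold lower, and 8 of 11 endoderm markers and 4 of 7 fibroblast markers were also lower, with 0 higher in each list. Trophoblast markers were mixed, with 2 of 8 tested at least 2-fold higher and 3 lower. Klf2, which endothelial cells use, went the opposite way from the endothelial list, of which 5 of 8 were at least 2-fold lower and 0 higher (summed level 60.2 and 38.3 FPKM). Prdm14 is also a factor of primordial germ cells. Among germ cell markers 6 of 8 were at least 2-fold higher and 0 lower, with a summed level of 37.8 FPKM in WT_NP and 504 in DKO_NP. Most of each sum was Stra8 alone, at 28.8 FPKM in WT_NP and 352 in DKO_NP. The part of these cell types in the members' values was not tested.

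**Figure D4:**
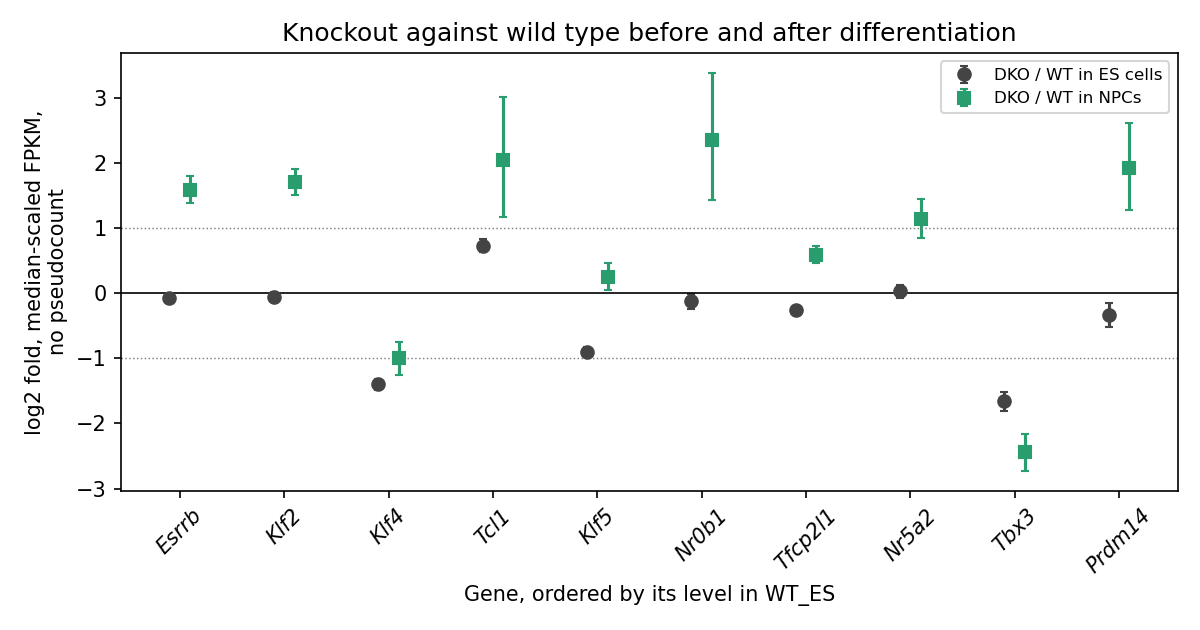
log2 fold of DKO over WT in ES cells (circles) and NPCs (squares), from median-scaled FPKM without a pseudocount, with exact 95% counting intervals; dotted lines mark 2-fold. Tbx3 and Klf4 lie below 0 in both, at 3.16-fold and 2.64-fold lower in ES cells and 5.44-fold and 1.99-fold lower in NPCs, Tcl1 lies above 0 in both, and Esrrb and Klf2 lie near 0 in ES cells and above 1 in NPCs.

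Other genes of the naive state stood in the same direction on day 6. Of 10 further naive genes, 9 were at least 2-fold lower in WT_NP than in WT_ES and 9 in DKO_NP than in DKO_ES, with 0 higher in either. In DKO_NP against WT_NP 5 were higher and 0 lower. The 5 were Zfp42, a marker of naive cells, at 5.49-fold (4.82 to 6.26), Dppa3, a factor of egg and germ cells, at 5.87-fold (4.44 to 7.89), Dppa5a at 3.45-fold (3.23 to 3.69), Fbxo15 at 3.20-fold (2.74 to 3.73) and Nanog at 2.52-fold (2.25 to 2.83). Between ES libraries 1 of the 10 was higher, Dppa3, and 0 lower.

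The upstream pathways were read at the level of their own transcripts, with counts on the (FPKM + 1) scale and folds without a pseudocount, so that a low gene can pass 2-fold on the second and not be counted. Of 11 genes of the LIF and STAT3 pathway, 6 were at least 2-fold lower and 1 higher in WT_NP than in WT_ES. The feedback inhibitor Socs3, a direct STAT3 target, was 8.66-fold lower (7.81 to 9.62), the kinase gene Pim3 4.15-fold (3.90 to 4.42), and Stat3 itself 2.27-fold (2.14 to 2.42), while Jak2 was 3.24-fold higher (2.86 to 3.68). In the knockout 4 were lower and 1 higher, with Socs3 7.99-fold lower (7.18 to 8.92) and the LIF receptor gene Lifr 3.71-fold lower (3.52 to 3.91). Between ES libraries 0 of the 11 reached 2-fold in either direction. There Socs3 was at 82.0 FPKM in the wild type and 71.0 FPKM in the knockout, and Lifr at 45.3 and 39.4. The largest folds of the list were those of Junb, 1.95-fold lower in the knockout (1.77 to 2.15), Lif, 1.68-fold lower (1.27 to 2.23), Pim3, 1.64-fold lower (1.56 to 1.73), and Jak2, 1.58-fold higher (1.37 to 1.83). The part of this pathway in the lower Klf4 and Tbx3 was not tested. On day 6 Lifr was the 1 gene past 2-fold, at 17.4 FPKM in the wild type and 7.70 FPKM in the knockout, a 3.06-fold lower level (2.91 to 3.23).

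Of 10 Wnt pathway genes, 1 was higher in WT_NP than in WT_ES (Tcf7l2) and 0 lower, and 2 were higher in DKO_NP than in DKO_ES (Tcf7l2 and Axin2). Lef1, a partner of beta-catenin, was the 1 gene counted as lower in DKO_ES than in WT_ES, 4.46-fold (3.36 to 6.01), and Tcf7l2, not counted, was 2.62-fold lower without a pseudocount (1.94 to 3.59). On day 6 0 of 10 were counted between genotypes, though without a pseudocount Tcf7l2 was 2.28-fold and Lef1 2.01-fold lower. Tcf7l1, the repressor of Esrrb, was at 11.9 FPKM in the wild-type and 6.52 FPKM in the knockout ES cells. Of 13 genes of FGF and ERK signalling, 5 were lower and 1 higher in both differentiations. The lower genes included Fgf4, the ligand made by ES cells, 200.5-fold lower in WT_NP (145 to 287), and the ERK feedback inhibitor Spry4, 104-fold (76.4 to 145), and the higher gene was the receptor Fgfr2, 14.3-fold (12.4 to 16.4). Between ES libraries Spry2 was 2.14-fold lower in the knockout (1.92 to 2.38) and the other 12 stayed within 2-fold, and on day 6 0 of 12 tested genes were counted between genotypes, though Fgf4, at 0.351 and 1.37 FPKM, was 2.89-fold higher (1.96 to 4.37) without a pseudocount. Of 10 formative and primed factors, which mark the state that follows the naive one, 5 were lower and 1 higher in WT_NP, and 5 lower and 2 higher in DKO_NP. Otx2, which opposes the naive network, was 18.1-fold lower in WT_NP (14.5 to 22.8) and 20.1-fold lower in DKO_NP (16.2 to 25.2). Between genotypes, Grhl2, an epithelial factor, was higher and Lef1 lower in DKO_ES, and Sox3 and Zic2, which neural progenitors also use, were higher in DKO_NP.

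Relatives of the members did not follow them as a group. Of 14 other KLF genes, 12 reached 1 FPKM in a wild-type library; 3 of these were at least 2-fold lower in WT_NP and 0 higher. The 3 were Klf9, at 92.7 FPKM in WT_ES and 4.52 in WT_NP, Klf8 and Klf10. In the knockout 3 of 11 were lower and 0 higher, and between genotypes the count was 0 of 11 in ES cells and, on day 6, 1 of 12, with Klf7 2.39-fold lower in DKO_NP (2.21 to 2.58). The 5 Tcl1b genes, the mouse relatives of Tcl1, were listed at 0 in all libraries, save Tcl1b2 at 0.0435 FPKM in DKO_NP. Esrrg, a close relative of Esrrb, and Nr5a1, a close relative of Nr5a2, reached at most 0.519 and 0.217 FPKM in any library. Esrra, another close relative of Esrrb, was expressed throughout, its lowest level being 5.86 FPKM (WT_NP) and its highest 13.0 FPKM (WT_ES). Over all 19 relatives, 10 were tested in WT_NP against WT_ES, with 2 higher (Tbx2 and Tbx5) and 0 lower. The counts were 1 higher and 2 lower of 10 in DKO_NP against DKO_ES, 0 of 9 either way between ES libraries, and 1 of 10 lower, Tbx5, between NPC libraries. Of 8 partner genes, 2 were lower in WT_NP and 0 higher, Pou5f1 and Cbfa2t2, the partner through which PRDM14 acts, which was 2.75-fold lower (2.63 to 2.88). In DKO_NP both were again lower, and the kinase gene Akt1, to whose product TCL1 binds, was 2.67-fold higher (2.49 to 2.85); between genotypes 0 of 8 reached 2-fold on either day.

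Among themselves, the members fell into closer and more distant profiles. The distance used is the root mean square difference of their log2 ratios to WT_ES over the other 3 libraries. Tfcp2l1 and Prdm14 were closest, at 0.20, followed by Nr5a2 with Prdm14 at 0.21, Nr5a2 with Tfcp2l1 at 0.21, and Esrrb with Nr0b1 at 0.24. Esrrb and Tbx3 were farthest apart, at 2.61. The median profile of the 10 was -3.40 in WT_NP, -0.18 in DKO_ES and -3.15 in DKO_NP. Outside the list, the 5 genes nearest to it of 9960 at or above 5 FPKM in WT_ES were C330046G13Rik (distance 0.06), the forkhead factor gene Foxd3 (0.09), the Polycomb gene Phc1 (0.10), Lrrc34 (0.11) and the oocyte gene Ooep (0.13). These distances rest on 3 ratios that share WT_ES and are a description. Phc1, for example, was at 235 and 188 FPKM in the wild-type and knockout ES cells, and at 12.0 and 17.9 FPKM in the NPCs.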

How the data were processed

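RNA was sequenced from rRNA-depleted total RNA as single-end reads, per the labels' protocols. The authors deposited FPKM for 23235 genes in 1 table, from which 18 blank rows were left out. Bowtie, TopHat and the mouse build mm9 are named in the submitters' processing notes; for the FPKM program and annotation, the names were not given in the sources used here. All 4 columns carry sample titles.

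Libraries were median scaled, by the median ratio to the geometric mean of the 4 libraries, taken on genes with 1 FPKM or more in each of them (factors 1.32, 0.671, 1.25 and 0.908 for WT_ES, WT_NP, DKO_ES and DKO_NP). Genes with 1 FPKM or more in either library of a pair were counted at a log2 ratio of (FPKM + 1) of 1 or more in size, that is 2-fold; this understates differences of low genes. Folds of single genes are ratios of scaled FPKM without a pseudocount. Their 95% intervals (Clopper-Pearson) and those of levels (Poisson) are exact intervals of approximate reads and cover counting error only, since PCR copies are not independent molecules. Relative depth was read from the steps of low FPKM values, and for 1171 of 1883 low genes (62.2%) the values were whole reads to within 0.04 read; GENCODE M21 exon lengths gave the absolute numbers, so reads are rough. The counting step was checked on simulated data. Python 3.11.15, pandas 2.3.3, numpy 2.4.6 and scipy 1.17.1 were used. No coordinates of the mm9 values are given; sequences are RefSeq's, on GRCm38.p6.

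No test was run, since each comparison sets 1 library against 1; a model with genotype and cell type as additive terms, with 1 residual degree of freedom, was not fitted. The members and gene lists were chosen with earlier results of these data known. All 10 members are named throughout; of each list the genes counted at 2-fold, the largest first, and for likeness the 5 genes nearest to the median profile. Tbx2, Tbx5, Tcf7l1, Col1a1, Col1a2, Fn1, Cubn, Gata4, Tcf7l2 and Lef1 between genotypes, Fgf4, the levels of Socs3 and Lifr between ES libraries, Esrrg, Nr5a1 and the Tcl1b genes were picked after their values were seen. So were Esrra and Tbx4, and Hnf4a, Ascl2, Kdr, Cldn5, Pecam1, Junb, Lif, Pim3 and Jak2 between ES libraries. A result of the partner list is not reported here. The alternatives tried were no scaling, upper-quartile scaling, pseudocounts of 0.1 and 5 FPKM, no filter, a filter at 5 FPKM, and folds of 1.5 and 4.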

Additional observations from a re-analysis of the deposited data

Results flagged for a closer look

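For 5 of the 10 genes the knockout stood lower than the wild type in ES cells and higher in NPCs, with both counting intervals clear of no difference. The log2 ratio in the knockout differentiation exceeded that in the wild type by 1.07 for Klf5, 1.29 for Esrrb, 0.74 for Tfcp2l1, 1.07 for Nr0b1 and 1.20 for Prdm14. In ES cells the differences were small for Esrrb (1.05-fold lower) and Nr0b1 (1.09-fold lower) and largest for Klf5 (1.86-fold lower). In NPCs the difference of Klf5 was the smallest of the 5, at 1.19-fold higher (1.04 to 1.37). The difference between the cell types was not tested, since each group holds 1 library.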

How the results depend on the processing

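In both differentiations 10 members were lower under both other scalings, the pseudocount of 0.1 FPKM, both other filters and at 1.5-fold, and 9, without Tbx3, with a pseudocount of 5 FPKM and at 4-fold. Their median log2 ratio ranged from -4.24 to -2.69 in the wild type and from -2.88 to -1.87 in the knockout. Between ES libraries, the number of lower members was 0 at 4-fold, and 1 was higher at 1.5-fold (Tcl1). Between NPC libraries, where most members stood near 1 FPKM, the number higher was 3 as deposited, 6 with a pseudocount of 0.1 FPKM, 1 with 5 FPKM, 6 at 1.5-fold and 0 at 4-fold, against 2 as reported. The number lower was 0 with a pseudocount of 5 FPKM, 0 with a filter at 5 FPKM, which 3 members passed, 2 at 1.5-fold and 0 at 4-fold, against 1. Of 216 recomputed member values and medians, 116 moved past their counting interval, or past a set limit for the differences of differentiations, and 100 did not. Of the same 216, 4 changed sign: the log2 ratio of Nr5a2 between ES libraries was -0.05 as deposited, the difference of differentiations of Tbx3 was 0.26 as deposited and 0.23 with a pseudocount of 5 FPKM, and that of Tcl1 was -0.36 with 5 FPKM. The cause was not tested. No paired analysis was possible because the groups compared share fewer than 2 replicate numbers; the additive model over the 4 libraries was not fitted. Without a library, the comparisons that use it have no value. The values of Nr0b1, Tcl1 and Prdm14 in WT_NP rest on about 12, 14 and 26 reads and have the widest counting intervals.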
